A study of Mus musculus with 12 samples.

Results

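Vitamin A reaches the nucleus through a short chain of proteins, and 9 genes of that chain are described here in brain and liver tissues of aged mice with and without periodic heat stress. They were taken by symbol from the 25239 gene symbols of the deposited count table. The set holds the retinoic acid receptor genes Rara and Rarg, the retinoid X receptor genes Rxra, Rxrb and Rxrg, the carrier gene Rbp4, the enzyme genes Rdh10 and Aldh1a1, and the storage gene Lrat. All mice were male wild-type C57BL/6J aged 24 months. The heat stress group was kept at 40 ± 0.5 °C and a relative humidity of 60 ± 5% for 3 hours per day over 15 days, and the control group was not. Messenger RNA was sequenced from 3 control and 3 heat stress libraries per tissue, 12 in all. Each library came from a small weighed piece of frozen tissue, the labels name the brain with no region, and they do not tie a brain library to a liver library of the same mouse. The p-values therefore measure the spread between these libraries of 1 sex, 1 strain and 1 age.

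Retinol, the transport form of vitamin A, is stored in the liver as retinyl ester, which the enzyme encoded by Lrat makes, mainly in hepatic stellate cells. Hepatocytes send retinol into the blood on retinol binding protein, the product of Rbp4, which travels in a complex with transthyretin (Ttr). In target cells Rdh10 oxidises retinol to retinal, Aldh1a enzymes oxidise retinal to retinoic acid, and Cyp26 enzymes break retinoic acid down. Retinoic acid binds RAR proteins, which sit on DNA as pairs with RXR proteins, often on direct repeats of the 6-base half-site AGGTCA or close relatives with 5 bases between them. RXR proteins also pair with other nuclear receptors, among them those for thyroid hormone, vitamin D and fatty acids. In the brain Rarb, the remaining RAR gene, and Rxrg are known for their expression in the striatum, Aldh1a1 for a group of midbrain dopamine neurons, and Ttr for the choroid plexus.

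Of the members, 8 of 9 had promoter windows in the RefSeq table for GRCm38.p6, which is the mm10 build, and Rdh10 was not among them. Each window holds the 250 bases before a transcription start. Half-sites were searched on both strands as AGGTCA or as AGTTCA, and with a G as the first base as GGGTCA or as GGTTCA, and at least 1 was present in 38.6% of the 32841 windows of the table. A direct repeat with 5 bases between its half-sites was present in 29 windows (0.0883%), and no window of a member held one with 1, 2 or 5 bases between. Of 3 other retinoid genes looked up, Rarb and Cyp26a1, the gene of a retinoic acid degrading enzyme, held 1 such repeat each. Their windows are shown because these 2 genes gave the lowest p-values of the retinoid genes in brain and in liver respectively, and the Rxrg windows because Rxrg was the member with the lowest p-value between heat stress and control. The Rarb window and the second Rxrg window lie within the annotated span of their genes, before the start of shorter transcripts. The other windows end at a RefSeq start, which for Cyp26a1 lies just inside and for Rxrg just before the gene span of GENCODE. Capitals mark half-sites on either strand, written on the strand of the gene.
Rarb, chr14:16575477-16575726, minus strand: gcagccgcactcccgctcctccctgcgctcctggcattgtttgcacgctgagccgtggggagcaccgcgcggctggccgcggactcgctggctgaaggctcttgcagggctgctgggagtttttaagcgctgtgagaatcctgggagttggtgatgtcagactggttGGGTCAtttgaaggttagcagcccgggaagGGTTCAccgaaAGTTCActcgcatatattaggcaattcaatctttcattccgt
Cyp26a1, chr19:37697558-37697807, plus strand: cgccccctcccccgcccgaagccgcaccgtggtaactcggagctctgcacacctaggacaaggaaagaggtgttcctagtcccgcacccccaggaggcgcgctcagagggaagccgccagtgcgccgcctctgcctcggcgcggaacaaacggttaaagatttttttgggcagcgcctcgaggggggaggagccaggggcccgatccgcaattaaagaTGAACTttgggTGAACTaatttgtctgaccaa
Rxrg, upstream start, chr1:167598112-167598361, plus strand: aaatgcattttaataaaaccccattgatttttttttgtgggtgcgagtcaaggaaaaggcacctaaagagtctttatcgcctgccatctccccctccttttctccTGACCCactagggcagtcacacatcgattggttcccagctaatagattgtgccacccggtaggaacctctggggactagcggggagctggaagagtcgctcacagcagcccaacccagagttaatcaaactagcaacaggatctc
Rxrg, downstream start, chr1:167618015-167618264, plus strand: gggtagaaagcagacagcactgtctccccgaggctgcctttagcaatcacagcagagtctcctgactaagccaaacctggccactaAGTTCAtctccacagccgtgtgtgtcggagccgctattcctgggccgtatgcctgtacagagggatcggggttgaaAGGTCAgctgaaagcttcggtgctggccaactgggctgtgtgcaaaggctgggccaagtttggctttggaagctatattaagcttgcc

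The Rarb repeat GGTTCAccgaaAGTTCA covered positions -53 to -37 relative to the start, at chr14:16575513-16575529. The Cyp26a1 repeat read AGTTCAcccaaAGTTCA on the strand opposite to the gene and covered positions -32 to -16, at chr19:37697776-37697792. The Rxrg windows held 1 and 2 half-sites that formed no such repeat. Of the other members, 1 of the Rara windows (chr11:98939461-98939710) held 4 half-sites and 1 of the Rxra windows (chr2:27709042-27709291) held 3, while Rxrb and Lrat held none. A match of letters is a description of the window and says nothing of binding.

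The depth was 10466198 to 15609040 counts per library. After Benjamini-Hochberg adjustment, edgeR's quasi-likelihood test called 0% of the 14806 genes tested in brain and 0% of the 12296 tested in liver at an adjusted p-value under 0.05. At an unadjusted p-value under 0.05 it gave 2969 genes (20.1%) in brain and 718 (5.84%) in liver, and DESeq2 called 540 (4.66%) and 63 (0.553%) after adjustment. None of the member values below is therefore a call in a comparison of heat stress with control by the main test, and they are described library by library. Defining markers fitted the labelled tissues: the sum of 8 hepatocyte markers was 81992 to 129130 TMM-normalized CPM (counts scaled to library size) in liver libraries, and that of 6 neuronal markers was 5481 to 7705 CPM in brain libraries. Some brain libraries differed in regional markers, whose sums are given beside the genes they move with. Liver control library 1 and liver heat stress library 2 held 385 and 2205 CPM of 8 skeletal muscle markers, against 1.03 to 7.10 CPM in the other liver libraries, of which control library 3 had Acta1, Ckm, Tnnt3 and Atp2a1 at 0. For the members, and for further genes where stated, liver fold changes are given with and without those 2 libraries.

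The members differed widely in level, and the order was not the same in both tissues. Levels between genes were compared as TMM-normalized CPM per kilobase of exon, scaled over all 12 libraries. In control liver Rbp4 (chr19:38116629-38125281, minus strand) stood highest at 3722 ± 339.8 (SD, n = 3), followed by Aldh1a1 (chr19:20492715-20643465, plus strand) at 677 ± 94.9 and Rxra (chr2:27676440-27762957, plus strand) at 78.6 ± 32.8. These 3 and the next, Rxrb (chr17:34031812-34038399, plus strand) at 10.1 ± 2.67, did not overlap with their neighbours above. Below Rxrb came Rdh10 (chr1:16105774-16133734, plus strand) at 8.90 ± 0.819, Lrat (chr3:82892579-82903973, minus strand) at 6.81 ± 1.82, Rara (chr11:98927818-98974942, plus strand) at 4.35 ± 2.16 and Rxrg (chr1:167598384-167639623, plus strand) at 3.46 ± 0.889. Neighbours in that lower group overlapped. Rarg (chr15:102234938-102257517, minus strand) was lowest at 1.24 ± 0.701, under every Rxrg value.

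In control brain the spread between members was far narrower, and the carrier gene no longer led. Aldh1a1 at 12.8 ± 6.05 and Rxrb at 11.5 ± 0.949 headed the order on the same per kilobase scale and overlapped with each other. Rxra at 5.63 ± 0.209, Rbp4 at 5.07 ± 1.38, Rxrg at 3.14 ± 1.70, Rara at 2.06 ± 0.453, Rarg at 1.72 ± 0.302 and Rdh10 at 1.71 ± 0.125 followed, each overlapping with the next. Lrat was last at 0.0378 ± 0.0229, below all Rdh10 values. In heat stress brain Rxrg ranked 3 at 8.10 ± 3.14, ahead of Rbp4 at 7.48 ± 1.96, with which it overlapped, and of Rxra at 4.78 ± 0.212, with which it did not. Rara ranked 8 of 9 at 1.35 ± 0.267. In heat stress liver the first 5 genes kept their order, and Rara at 6.19 ± 1.45 and Lrat at 5.58 ± 0.906 exchanged places but overlapped.

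**Figure D1:**
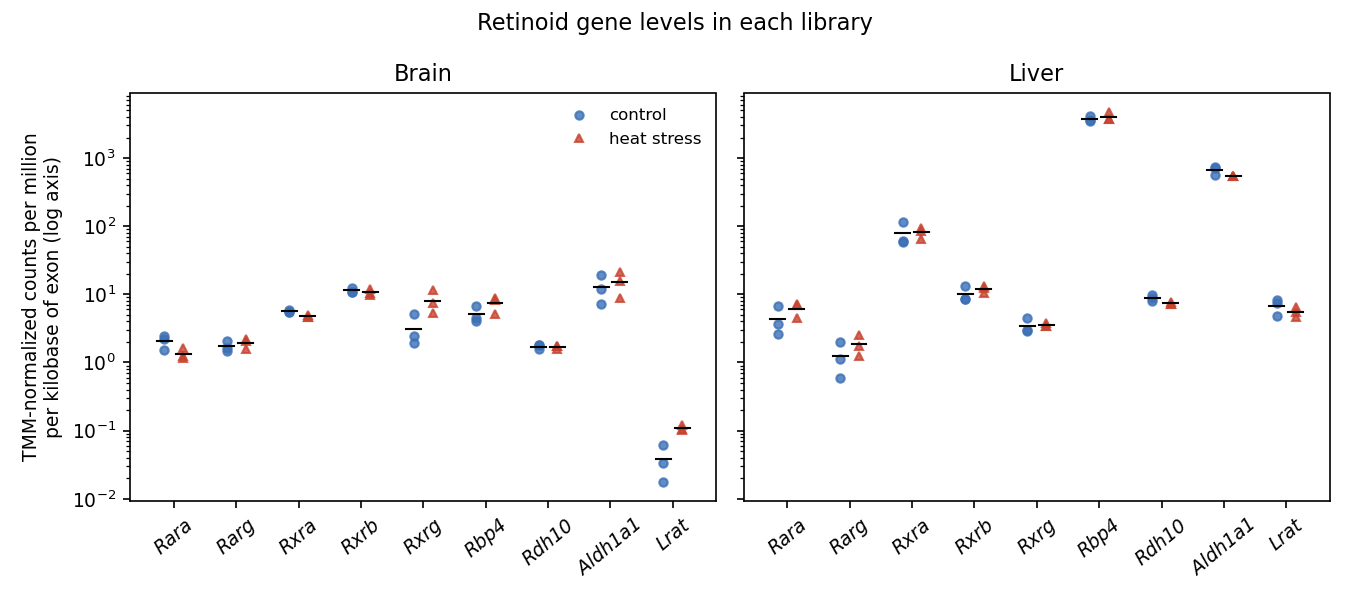
Levels of the 9 members in each brain and liver library, as TMM-normalized CPM per kilobase of exon on a log axis, with control libraries as circles, heat stress libraries as triangles and group means as bars. Rbp4 and Aldh1a1 stand far above the other members in liver, and Lrat is at most 0.121 in the brain libraries.

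Between the control tissues, 6 of the 9 members were higher in liver at an adjusted p-value under 0.05 and none was lower, where 80.4% of the 15824 genes tested passed, 36.1% higher and 44.2% lower. Rbp4 differed by 9.51 on the log2 scale (SE 0.37, adjusted p = 7.00e-11), Lrat by 7.46 (SE 0.35, adjusted p = 2.62e-10) and Aldh1a1 by 5.73 (SE 0.43, adjusted p = 2.18e-08). Lrat had only 2 to 6 counts per control brain library and passed the filter of this fit only through its liver libraries. Its p-value here therefore decides nothing, and its place among the 6 rests on its levels. The remaining 3 were Rxra, Rdh10 and Rara, with 3.80, 2.38 and 1.09 (adjusted p = 1.31e-08, 2.93e-09 and 0.00571). Rarg (-0.46), Rxrb (-0.19) and Rxrg (0.15) did not pass, with adjusted p-values of 0.245, 0.347 and 0.704. Without liver control library 1, which holds muscle markers, Rara had 0.61 and still passed. Without it Rarg and Rxrb had -0.99 and -0.43 (adjusted p = 0.0173 and 0.0186 by edgeR), and without brain control library 2 Rxrg had 0.70 (adjusted p = 0.0481 by edgeR). The median of all genes tested was -0.24 on the same scale. Among 68 further genes of retinoid transport, metabolism, targets, coregulators and RXR partners, 60 were tested, of which 31 were higher and 17 lower in liver. Coregulator genes, which encode proteins that the receptors recruit, ran the other way, with 8 of 9 lower in liver and none higher.

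In brain tissues, the comparison of heat stress with control asks whether repeated heat moved the receptors or the supply of their ligand. Rxrg and Rarb were higher in every heat stress library than in every control library, and Rara and Rxra had lower means. Of the 8 members tested, 2 showed no overlap between groups, 1 higher and 1 lower, where 24.9% of all genes tested did so, and 3 had an unadjusted p-value under 0.05, against 20.1% of all genes. The members' median log2 fold change was 0.077 and that of all genes -0.0030.

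Rxrg encodes the RXR isotype with the most restricted expression in brain. Its levels in control libraries 1 to 3 were 8.09, 17.2 and 6.39 CPM, and in heat stress libraries 1 to 3 they were 25.3, 18.0 and 38.7 CPM. The highest control library lay just under the lowest heat stress library, and the others were well apart. The log2 fold change was 1.38 (SE 0.39, unadjusted p = 0.00657, edgeR adjusted p = 0.170), and DESeq2 gave 1.38 (SE 0.35) with an adjusted p of 0.0144. Leaving out control library 2 gave 1.90 and leaving out heat stress library 3 gave 1.04, the extremes over the 6 libraries. Across all alternatives the adjusted p ranged from 0.0144 to 0.541.

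Rarb (chr14:16430839-16819156, minus strand), the RAR gene outside the set, is shown beside Rxrg because it completes the RAR family. Control libraries held 9.80, 15.5 and 10.7 CPM and heat stress libraries 24.5, 21.8 and 36.8 CPM, so the groups did not overlap and the same libraries were highest as for Rxrg. Its log2 fold change was 1.21 (SE 0.24, unadjusted p = 0.000611, edgeR adjusted p = 0.170), with an adjusted p of 0.00223 by DESeq2.

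Rara, the RAR isotype found in most tissues, was lower on average in the heat stress group. Control libraries held 15.4, 9.95 and 13.9 CPM and heat stress libraries 7.48, 7.88 and 10.6 CPM. Control library 2 lay below heat stress library 3, so the groups overlapped. The log2 fold change was -0.60 (SE 0.21, unadjusted p = 0.0197, edgeR adjusted p = 0.190).

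Rxra, the main RXR of liver and skin, varied little between brain libraries. Control libraries held 44.6, 47.1 and 43.1 CPM and heat stress libraries 40.3, 37.8 and 36.9 CPM, with no overlap, and the log2 fold change was -0.23 (SE 0.10, unadjusted p = 0.0530, adjusted p = 0.255). Rxrb, which is expressed in most cell types, held 63.0 to 73.1 CPM in control libraries and 58.2 to 68.9 CPM in heat stress libraries. Its groups overlapped and its log2 fold change was -0.091 (SE 0.12). Rarg, best known from skin and cartilage, held 9.25 to 12.8 and 9.79 to 13.7 CPM, with a log2 fold change of 0.17 (SE 0.19).

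Markers of the striatum moved with Rxrg and Rarb. The summed level of 10 striatal markers was 628, 1043 and 597 CPM in control libraries and 1391, 1001 and 2182 CPM in heat stress libraries, and no marker was at 0 in any of them. All 10 had a log2 fold change above 0 (median 1.09), 9 with an unadjusted p-value under 0.05, and 4 without overlap between groups. Per 1000 CPM of these markers, Rxrg stood at 12.9, 16.5 and 10.7 CPM in control libraries and at 18.2, 18.0 and 17.7 CPM in heat stress libraries. That ratio was higher in every heat stress library, by a smaller factor than the level. The same ratio of Rarb was 15.6, 14.9 and 17.9 in control libraries and 17.6, 21.7 and 16.9 in heat stress libraries, which overlapped. In such bulk tissue more cells of a type and more RNA per cell cannot be told apart, and the part of striatal content in these differences was not tested.

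**Figure D2:**
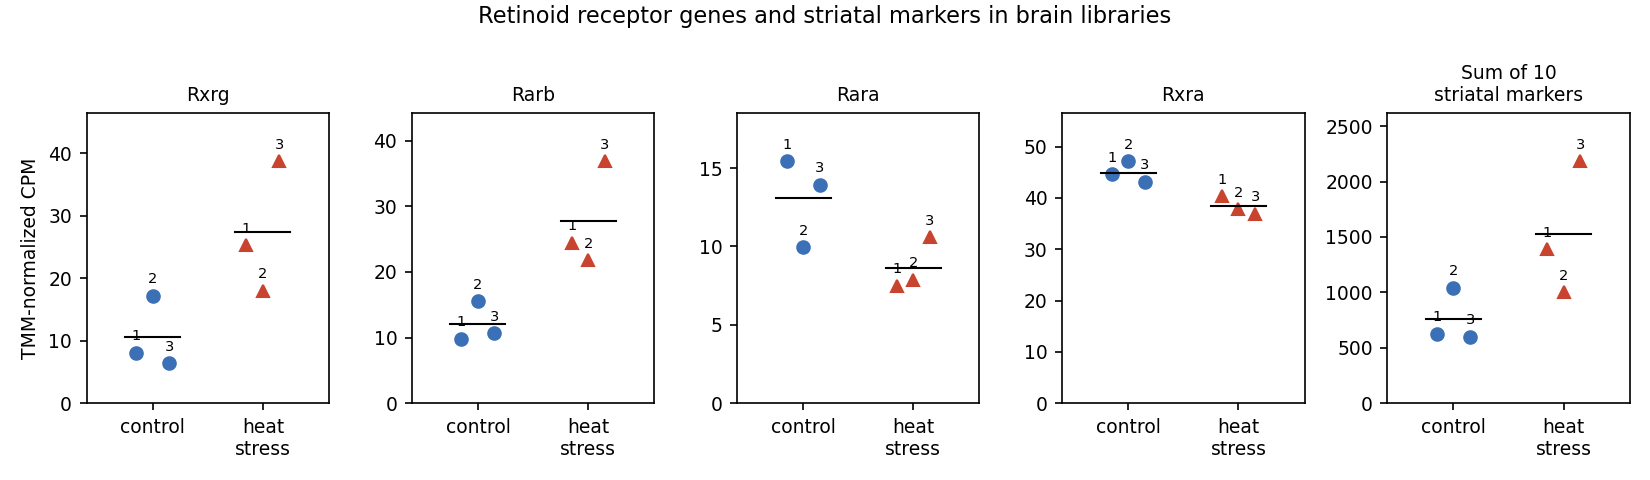
TMM-normalized CPM of Rxrg, Rarb, Rara and Rxra and the sum of 10 striatal marker genes in each brain library, with the replicate number at each point and the group mean as a bar. Heat stress library 3 is highest for Rxrg, Rarb and the marker sum, while Rara and Rxra have lower means in the heat stress group.

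Seen as a family, the receptors of the brain had a different make-up in the heat stress group. Of the summed RAR level per kilobase, Rara made up 42.0, 30.8 and 42.0% in control libraries and 19.8, 19.7 and 19.5% in heat stress libraries. Rarb made up 22.2, 39.9 and 26.7% against 53.7, 45.2 and 56.4%, and Rarg averaged 32.1 ± 3.32% against 28.6 ± 5.79%. The Rara and Rarb shares did not overlap between groups, whereas those of Rarg did. Of the summed RXR level, Rxrg made up 11.7, 23.2 and 10.5% in control libraries and 33.3, 26.0 and 41.1% in heat stress libraries. Rxrb averaged 57.0 ± 6.05% and 45.9 ± 4.53% and remained the leading RXR gene on average, with overlap, and Rxra averaged 27.9 ± 1.65% and 20.6 ± 3.57%, without overlap. Shares of a family add up to a whole, so a higher share of 1 gene lowers those of the others. With 3 against 3 libraries the smallest p-value of an exact two-sided permutation test is 0.1, and no p is given for the shares. How often shares of other gene families fail to overlap was not computed. Rarb and Rxrg moved with the striatal markers, and the part of striatal content in these shares was not tested.

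In liver the make-up was steady. Rara made up 62.5 ± 3.46% of the RAR level in control and 65.3 ± 3.89% in heat stress liver, and Rxra made up 84.9 ± 1.77% and 84.0 ± 1.33% of the RXR level. These differences were smaller than the spread between libraries.

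**Figure D3:**
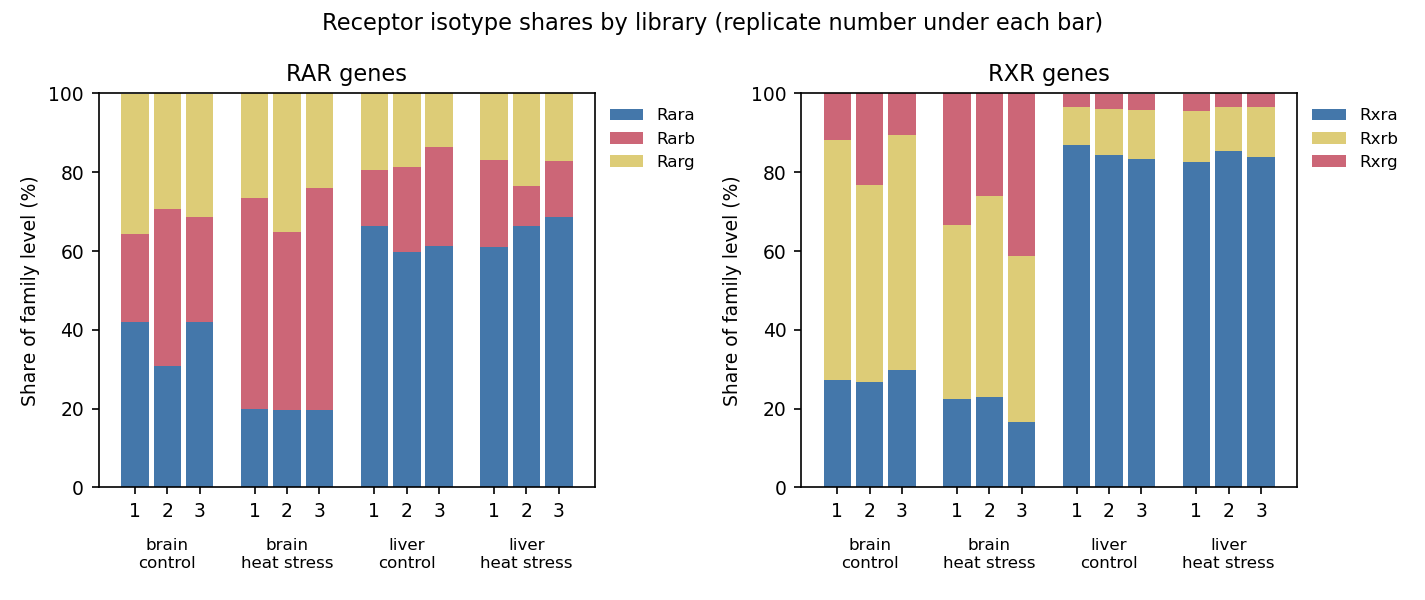
Share of each receptor gene in the summed level per kilobase of the RAR genes and of the RXR genes, in percent, with 1 bar per library. The Rarb and Rxrg segments are larger in all 3 heat stress brain libraries than in any control brain library, and Rxra fills at least 82.7% of every liver bar in the RXR panel.

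Among the members of supply and synthesis tested in brain, Rbp4, Rdh10 and Aldh1a1, the groups overlapped. Rbp4 held 13.0, 8.99 and 7.85 CPM in control libraries and 10.3, 16.6 and 17.4 CPM in heat stress libraries. Control library 1 lay above heat stress library 1, and the log2 fold change was 0.56 (SE 0.25, unadjusted p = 0.0499, adjusted p = 0.249). Rdh10, which makes retinal, was the steadiest member, with 9.60 to 10.8 CPM in control and 9.54 to 10.8 CPM in heat stress libraries and a log2 fold change of -0.014 (SE 0.15).

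Aldh1a1, which makes retinoic acid, held 51.2, 87.4 and 137 CPM in control libraries and 155, 114 and 63.7 CPM in heat stress libraries. The spread within each group was wider than the difference between them, with a log2 fold change of 0.27 (SE 0.40, unadjusted p = 0.513). The sum of 7 midbrain dopamine markers was 38.6, 52.3 and 155 CPM in control libraries and 147, 59.3 and 51.3 CPM in heat stress libraries, and En1 and Pitx3 were at 0 in control library 1 and in heat stress library 3. The libraries highest for those markers were also the highest for Aldh1a1 in each group. Its part in the Aldh1a1 values was not tested.

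Lrat was barely expressed in brain and did not enter the test. It had 2, 3 and 6 counts in control libraries and 9, 9 and 10 in heat stress libraries, with no overlap. The sums, 11 and 28 counts, gave a depth-corrected ratio of 3.01 with an exact 95% interval of 1.45 to 6.70, which covers counting error only. DESeq2 gave a log2 fold change of 1.56 (SE 0.82, unadjusted p = 0.0571) and no adjusted p.

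Of the 68 further genes of the pathway, 47 were tested in brain, and 4 had a higher and 13 a lower level in the heat stress group at an unadjusted p-value under 0.05, against 10.0% of all genes in each direction. None passed after adjustment by edgeR. All 9 coregulator genes had a log2 fold change below 0 (median -0.34), where 49.7% of all genes lay above 0, 6 of them with an unadjusted p-value under 0.05 and 5 without overlap. The corepressor gene Ncor1 went from 190.4 ± 19.4 to 149.96 ± 12.3 CPM with a log2 fold change of -0.34 (SE 0.12, unadjusted p = 0.0200, edgeR adjusted p = 0.191). The histone acetyltransferase genes Ep300 and Crebbp had -0.46 and -0.48. Ncoa1 and Ncoa3, coactivator genes, had -0.36 and -0.33. Ppard, a fatty acid receptor that pairs with RXR, had -0.62 (SE 0.16, edgeR adjusted p = 0.170), and DESeq2 gave Ep300 and Ppard adjusted p-values of 0.0417 and 0.0429.

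Carriers and binding proteins of the brain had mixed values. Ttr, whose protein carries the Rbp4 complex, held 1448, 1159 and 2326 CPM in control libraries and 591, 1057 and 227 CPM in heat stress libraries. All heat stress values were lower, with a log2 fold change of -1.40 (SE 0.50, unadjusted p = 0.0237, adjusted p = 0.199). It was -2.005 without heat stress library 2 and -0.997 without heat stress library 3. Ttr belongs to 9 choroid plexus markers, of which none was at 0 in any brain library, none had a log2 fold change above 0 and 6 had an unadjusted p-value under 0.05 (median -1.24). Their sums were 1258 to 2501 CPM in control and 263 to 1135 CPM in heat stress libraries. Per 1000 CPM of the other 8 markers, Ttr stood at 14895, 11758 and 13221 CPM in control and at 9465, 13480 and 6264 CPM in heat stress libraries, which overlapped.

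Crabp1, which binds retinoic acid in the cytoplasm, held 0.823, 2.44 and 0.648 CPM in control libraries and 5.36, 2.42 and 3.59 CPM in heat stress libraries. Control library 2 and heat stress library 2 nearly coincided, and the log2 fold change was 1.56 (SE 0.50, unadjusted p = 0.0121). Leaving out control library 2 gave 2.34 and leaving out heat stress library 1 gave 1.217, the extremes for Crabp1. Per 1000 CPM of striatal markers it stood at 1.31, 2.34 and 1.08 in control libraries and 3.85, 2.42 and 1.64 in heat stress libraries. Stra6, the cell surface receptor of the Rbp4 complex, had a log2 fold change of -0.64 (SE 0.30, unadjusted p = 0.0623).

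Among targets and enzymes, Tgm2, a classical retinoic acid target, went from 15.1 ± 3.78 to 9.14 ± 2.58 CPM without overlap, with a log2 fold change of -0.73 (SE 0.24, unadjusted p = 0.0143). Hic1, of the same target list, had -1.07 and the retinol dehydrogenase gene Rdh5 -0.93 (-0.50 without control library 3), while Rdh14, of the same enzyme family, went from 27.2 ± 3.29 to 35.1 ± 2.98 CPM (0.37). The lipase genes Pnpla2 and Lipa had -0.50 and -0.39. Dhrs3, which reduces retinal and is itself a target of retinoic acid, had -0.00084, and Aldh1a2, Crabp2 and Cyp26b1 had 0.22, 0.66 and 0.19 with overlapping groups. Aldh1a2, Crabp2 and Cyp26b1 were all highest in heat stress library 2. Sums of 8 meningeal markers were 87.8 to 125 CPM in control and 52.4 to 164 CPM in heat stress libraries, and their part was not tested. Cyp26a1 had 0 to 4 counts in every brain library and did not enter the test. The sums of 6 endothelial markers, 150 to 271 CPM in control and 107 to 141 CPM in heat stress libraries, also moved with the groups. Of these 6 markers, 5 had a lower level at an unadjusted p-value under 0.05 (median -1.04), none was at 0, and their part in the values of other genes was not tested.

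As a description over the 6 brain libraries, the tested genes whose log2 CPM was most like that of Rxrg included Gzf1 and Zbtb26, with Pearson's r of 0.999 and 0.993. For Rara they were Sugp2, Mon2 and Map7d1 (r = 0.996, 0.994 and 0.994), and for Rbp4 they were Pla2g12a, Lin7b and Adamts18 (r = 0.992, 0.982 and 0.973). The genes were picked as the highest of all tested, over few libraries.

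In liver tissues the same comparison asks whether the organ that stores and exports vitamin A responded. Rdh10 and Aldh1a1, 2 of the enzymes that make retinoic acid from retinol, held lower levels in every heat stress library than in every control library, but neither passed a test. Other genes of the same steps did not share this order. Rdh7, at 1248 to 1648 CPM over the liver libraries, and Rdh9 overlapped between groups, and Aldh1a3, too low to be tested in liver, held 0.16 to 0.39 CPM in control and 0.55 to 1.32 CPM in heat stress libraries. Means of the receptors were higher, with overlapping groups. Sums of 6 endothelial markers did not overlap in liver, with 152 to 167 CPM in control and 174 to 210 CPM in heat stress libraries. The part of endothelial content in the values of other genes was not tested. Of the 9 members, 0 had an unadjusted p-value under 0.05 by edgeR, where 5.84% of all genes did, and 0 passed after adjustment by edgeR or by DESeq2. None was higher and 2 were lower without overlap, against 5.38% and 5.73% of all genes. Their log2 fold change lay above 0 for 6 of 9, as for 51.8% of all genes, with a median of 0.099 against 0.011 over all genes.

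Rdh10 held 25.4, 24.0 and 25.9 CPM in control libraries and 20.6, 21.5 and 21.0 CPM in heat stress libraries. The ranges within groups were narrow and apart, and the log2 fold change was -0.25 (SE 0.15, unadjusted p = 0.131, adjusted p = 0.930). Aldh1a1 held 2203, 2633 and 1972 CPM in control libraries and 1846, 1797 and 1877 CPM in heat stress libraries, with a log2 fold change of -0.30 (SE 0.20, unadjusted p = 0.158), and -0.18 without control library 2. Reads of Aldh1a1 could be shared with its close relative Aldh1a7, which had a log2 fold change of -0.10 in liver, and the handling of shared reads is not given in the sources used here.

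Rbp4, the product by which liver exports retinol, held 3452, 3300.5 and 3399.7 CPM in control libraries and 3510.4, 3327 and 4432.5 CPM in heat stress libraries. Heat stress library 3 stood above the rest, and the log2 fold change was 0.15 (SE 0.20, unadjusted p = 0.476) with all libraries and 0.00051 without that library. Lrat held 15.9, 28.3 and 30.9 CPM in control libraries and 24.3, 16.9 and 20.4 CPM in heat stress libraries, which overlapped, with a log2 fold change of -0.28 (SE 0.26, unadjusted p = 0.302). It was -0.54 without control library 1 and -0.10 without control library 3. The sum of 10 stellate cell markers was 354, 345 and 367 CPM in control and 433, 481 and 347 CPM in heat stress libraries. None of those markers was at 0, and 9 of 10 had a log2 fold change above 0 (median 0.17). Per 1000 CPM of them Lrat stood at 45.0, 82.0 and 84.3 CPM in control and at 56.2, 35.2 and 58.9 CPM in heat stress libraries.

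Among the receptors, Rara held 18.5, 11.3 and 8.11 CPM in control libraries and 13.8, 20.9 and 21.0 CPM in heat stress libraries, with a log2 fold change of 0.55 (SE 0.30, unadjusted p = 0.0985, adjusted p = 0.920). The control library with muscle transcripts was the highest of its group, and without it Rara had 0.92, against 0.31 without control library 3. Without both muscle libraries, which leaves 2 against 2, Rara had a log2 fold change of 0.83 (SE 0.26, unadjusted p = 0.00430, adjusted p = 0.209). Rarg held 5.29, 3.43 and 1.77 CPM in control and 3.72, 7.25 and 5.13 CPM in heat stress libraries, with log2 fold changes of 0.60 (SE 0.39) with all libraries and 0.74 without those 2. For Rarg the value was 1.03 without control library 1 and 0.29 without control library 3.

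The RXR genes overlapped between groups. Rxra held 398, 239 and 222 CPM in control libraries and 250.4, 341 and 329 CPM in heat stress libraries, a log2 fold change of 0.099 (SE 0.26) with all libraries and 0.31 without the muscle libraries. Rxrb held 32.7, 24.1 and 23.9 CPM in control and 28.7, 32.8 and 36.1 CPM in heat stress libraries (0.27, SE 0.19), and Rxrg, 4.75 to 6.46 and 5.51 to 5.78 CPM (0.064, SE 0.22). Leaving out the muscle libraries gave 0.42 for Rxrb and 0.19 for Rxrg. For all 5 receptors, control library 1 was the highest of its group. Without both muscle libraries Rdh10, Aldh1a1, Rbp4 and Lrat had -0.28, -0.32, 0.23 and -0.42, in each case with the sign of the full comparison.

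The suffix 2nd stands in the column headers of liver control library 2 and of heat stress libraries 1 and 3, and the sources used here do not explain it. The libraries with the suffix are 1 control against 2 heat stress libraries, and those without it are 2 controls against 1 heat stress library and include both muscle libraries. Log2 differences within these subsets therefore rest on a single library in one group and were not tested. Those of the subset without the suffix cannot be told apart from the muscle transcripts. With and without the suffix, the differences were 0.63 and 0.65 for Rara, 0.37 and 1.04 for Rarg, 0.27 and 0.14 for Rxra, and 0.43 and 0.21 for Rxrb. For Rxrg they were 0.20 and 0.046, and for Rbp4 0.27 and -0.042. The values were -0.20 and -0.26 for Rdh10, -0.50 and -0.22 for Aldh1a1, and -0.34 and -0.47 for Lrat.

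Of the further pathway genes 53 were tested in liver, with 3 higher and 3 lower in the heat stress group at an unadjusted p-value under 0.05, against 2.97% and 2.87% of all genes, and none passed after adjustment by edgeR. Cyp26a1, which breaks down retinoic acid and is strongly induced by it, held 113, 86.4 and 63.2 CPM in control libraries and 27.8, 39.4 and 57.3 CPM in heat stress libraries. All heat stress values were lower, with a log2 fold change of -1.08 (SE 0.29, unadjusted p = 0.00412), an adjusted p of 0.465 by edgeR and of 0.0491 by DESeq2. Without the muscle libraries it had -0.83. Its promoter window is 1 of the 2 with a direct repeat shown above.

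Stra6l, the retinol binding protein receptor of liver, held 179, 146 and 157 CPM in control libraries and 111, 125 and 106 CPM in heat stress libraries. No values overlapped, and the log2 fold change was -0.49 (SE 0.17, unadjusted p = 0.0176, adjusted p = 0.779).

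The enzymes of the lipase genes Lpl, Pnpla2 and Pnpla3 can release retinol from its esters. These genes had 1.24, 0.92 and -1.16 with overlapping groups (unadjusted p = 0.0205, 0.0321 and 0.0423). Without the muscle libraries they had 0.68, 1.17 and -0.50, and Pnpla2 then reached an adjusted p of 0.0253 by edgeR. Within the same subsets, with and without the suffix, Lpl had 0.70 and 2.01, Pnpla2 1.10 and 1.16, and Pnpla3 -0.033 and -1.90. Lpl had 0.48 without heat stress library 2, Pnpla2 had 1.43 without control library 1, and Pnpla3 had -0.68 without control library 1 and -1.85 without heat stress library 1. Heat stress library 2, which holds muscle markers, also had the highest sum of 6 adipocyte markers, 69.8 CPM with none at 0, against 30.2 to 44.5 CPM with 0 to 2 at 0 in the other liver libraries. Their part in the lipase values was not tested. Other genes of the chain gave smaller values: Ttr 0.26, Adh1 0.12, Bco1 0.28, Dhrs3 -0.11, Tgm2 -0.16, Rarb 0.14 and Cyp26b1 -0.28 as log2 fold changes. In the same order these were 0.47, 0.35, 0.41, 0.10, 0.097, 0.33 and -0.16 without the muscle libraries. The 9 coregulator genes had a median of -0.059 in liver, and none had an unadjusted p-value under 0.05.

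**Figure D4:**
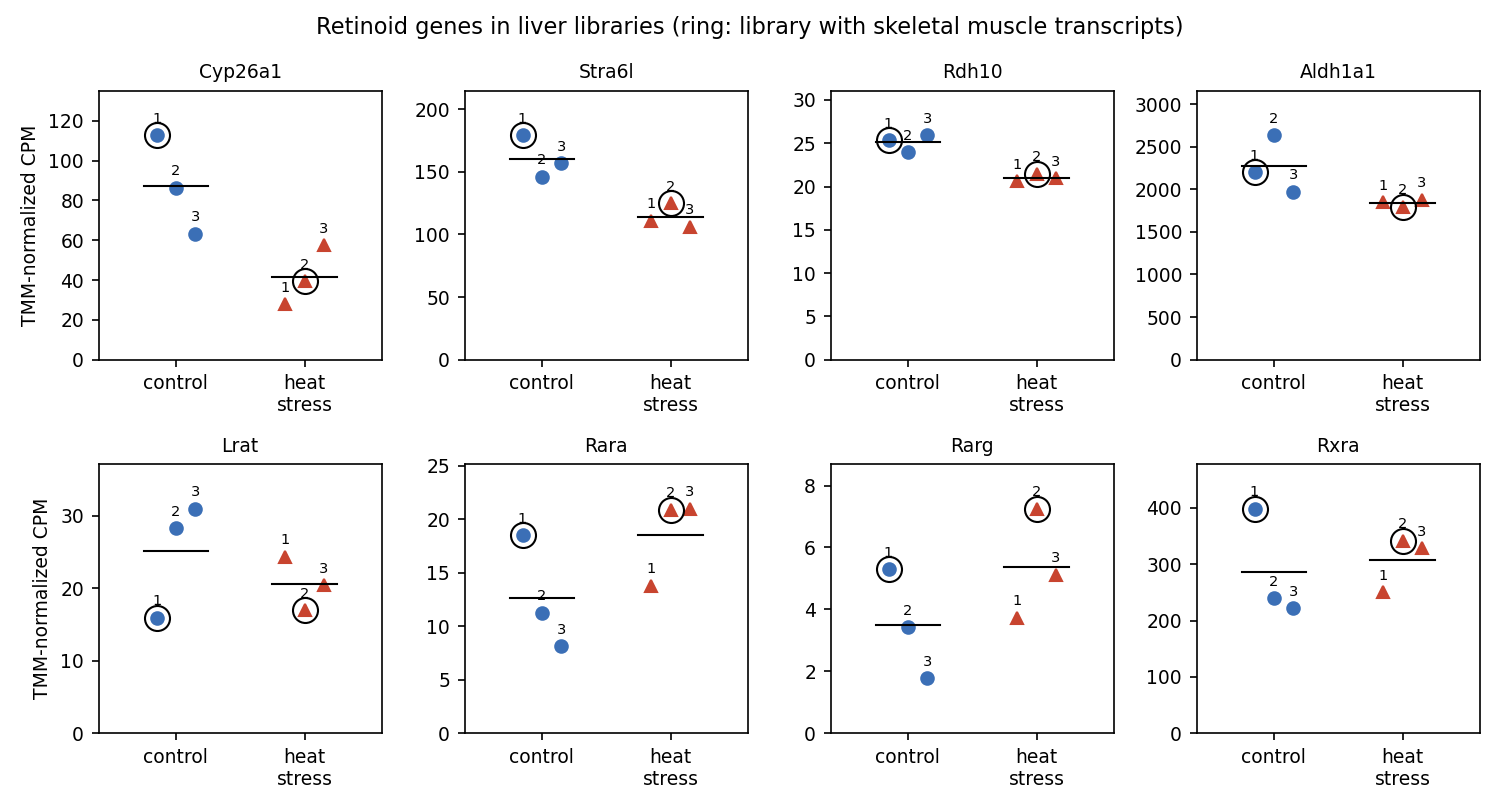
TMM-normalized CPM of 8 retinoid genes in each liver library, with replicate numbers, group means as bars and rings around the 2 libraries with skeletal muscle transcripts. Cyp26a1, Stra6l, Rdh10 and Aldh1a1 are lower in all 3 heat stress libraries, while Lrat, Rara, Rarg and Rxra overlap.

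The difference of the heat effects between the tissues was tested as liver minus brain in a fit of all 12 libraries, where 1 of 15824 genes (0.00632%) passed after adjustment and 9.64% had an unadjusted p-value under 0.05. No member passed after adjustment. Rara, with opposite signs in the tissues, differed by 1.11 on the log2 scale (SE 0.44, unadjusted p = 0.0255, adjusted p = 0.516). Rxrg differed by -1.34 (SE 0.50, unadjusted p = 0.0192) and Lrat by -1.81 (SE 0.53, unadjusted p = 0.00442), both with an adjusted p of 0.516, and DESeq2, which called 0.330% of genes in this contrast, gave an adjusted p of 0.226 for Lrat. The Lrat value rests on 2 to 10 counts per brain library. Lrat did not enter the brain test and passed the filter of this fit only through its liver libraries, so its p-values here decide nothing. For the other 6 members the unadjusted p-values were 0.208 to 0.441.

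**Figure D5:**
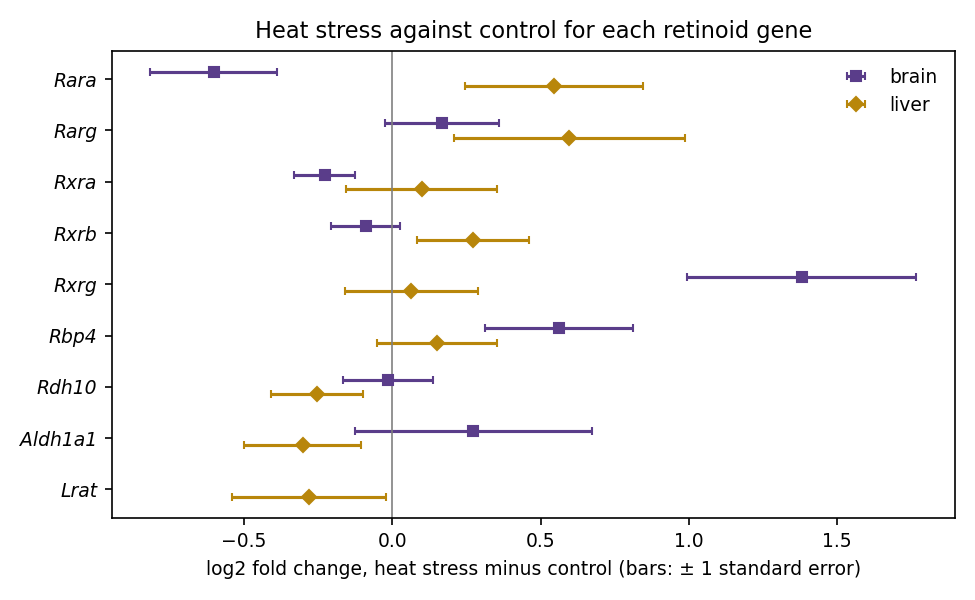
Log2 fold change of heat stress against control for each member in brain (squares) and liver (diamonds), with bars of 1 standard error and no brain value for Lrat, which was not tested there. Rxrg in brain lies farthest from 0 at 1.38, and Rara lies on opposite sides of 0 in the tissues.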

How the data were processed

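Stranded sequencing of poly(A)-selected RNA gave 12 libraries of brain and liver tissues. The authors deposited raw read counts per gene symbol, without normalization. The submitters' processing notes name FastQC 0.11.9, Trimmomatic 0.39, HISAT2 2.2.1 and featureCounts of Subread 2.0.1 on mm10, whereas another passage of the methods names Tophat2 and HTSeq. The strand setting, the annotation release and what was done with reads that match several genes are not given in the sources used here. The authors' tables of DESeq2 fold changes and p-values were not used. The number of unused columns with values of a single library was 0.

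From the counts, the heat stress and control groups of a tissue were contrasted in R 4.3.3 by the robust quasi-likelihood test of edgeR 4.0.16 with TMM normalization. The filterByExpr filter required a count of 10 (total 15), and p-values were adjusted by Benjamini-Hochberg over all genes tested. A fit of the 4 groups gave the difference of heat effects between tissues and the difference between the control tissues. Standard errors were derived from the size of the log2 fold change and the root of F. CPM values are TMM-normalized within a tissue. Levels per kilobase used exon lengths of GENCODE M21 on GRCm38, the source of the gene coordinates, and promoter sequences came from RefSeq. Alternatives were RLE and upper-quartile scaling, DESeq2 1.42.0, no or a stricter filter, the replicate number as a block, a joint fit, each library left out in turn, the liver without both muscle libraries, and the header suffix as a covariate, which was added after seeing the data. Members, gene lists and alternatives were chosen with earlier results of these data known. Genes named are the 9 members, 13 chosen pathway genes, up to 12 more pathway genes per tissue by p-value among those with an unadjusted p-value under 0.05, and the 3 genes most like each member with such a p-value. Some genes under this rule are not reported here. Outside it, Aldh1a7 was named as a close relative of Aldh1a1, and marker genes at 0 were named after their values were seen. The procedures were tested on simulated counts.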

Additional observations from a re-analysis of the deposited data

How the results depend on the processing

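Without the muscle libraries or under any scaling, filter or joint fit run, no member changed direction within a tissue. In brain 0 genes passed by edgeR in every alternative, leave-one-out fits included, and 540 by DESeq2, among them Rxrg. In liver the count of 0 became 2 with upper-quartile scaling, 63 with DESeq2, 8 without a filter, 14 in the joint fit of 4 groups, 81 without both muscle libraries and 6 with the suffix as a covariate. It was 0 to 25 when single libraries were left out, with 25 without control library 1 and 1 without heat stress library 2. For the difference of heat effects the count of 1 became 0 with RLE scaling, 43 with DESeq2 and 0 without a filter, and 0 to 4 when single libraries were left out. Between control tissues the 12715 calls stayed within 10445 to 13497. The causes were not tested.

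Same-numbered control and heat stress libraries had correlations of deviations of -0.289, 0.191 and -0.199 in brain and of -0.584, -0.509 and -0.0877 in liver. These are libraries of different mice, and whether same-numbered brain and liver libraries share a mouse was not checked. With the replicate number as a block within each tissue, 0 genes passed in brain, 1 in liver, 0 for the difference of heat effects and 10445 between the control tissues. Rxrg in brain then had a log2 fold change of 1.42 (adjusted p = 0.224). Aldh1a2 in brain turned from 0.22 to -0.012 with the block.

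Other log2 fold changes turned sign. Dhrs3 in brain had 0.015 with upper-quartile scaling and 0.0032 with a minimum count of 30, and without the muscle libraries Dhrs3 and Tgm2 in liver had 0.10 and 0.097. With single libraries left out, the brain values ranged from -0.072 to 0.037 for Rdh10, -0.055 to 0.68 for Aldh1a1, -0.19 to 0.11 for Dhrs3, -0.73 to 0.54 for Aldh1a2, -0.073 to 0.95 for Crabp2 and -0.16 to 0.35 for Cyp26b1. In liver they ranged from -0.057 to 0.40 for Rxra, -0.011 to 0.22 for Rxrg, -0.24 to 0.10 for Dhrs3, -0.31 to 0.18 for Tgm2, -0.0093 to 0.39 for Adh1, -0.022 to 0.31 for Rarb and -1.06 to 0.095 for Cyp26b1. The tissue difference of Rxrg ranged from -0.091 to 0.70, the highest with an adjusted p of 0.0481 by edgeR. Some values within a tissue kept their sign but moved by over 1.5 times with single libraries left out. Such ranges not given above were, in brain, 0.065 to 0.32 for Rarg, -0.16 to -0.020 for Rxrb and -0.89 to -0.40 for Stra6. In liver they were 0.18 to 0.43 for Rxrb and 0.045 to 0.38 for Ttr. At this depth Lrat and Cyp26a1 in brain, with at most 10 counts per library, give no firm ratio.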
